A study of Mus musculus with 11 samples.

Results

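Matrix metalloproteinases (Mmp), the related Adamts proteases with their Adamtsl relatives, and the tissue inhibitors of metalloproteinases (Timp) were examined across 3 regions of the mouse testis. Members were all genes whose symbol in the array annotation is Mmp, Timp or Adamts followed by a number, or begins with Adamtsl, and each gene was read from the probe set with its highest mean log2 signal. This gave 42 of the 18194 genes with a probe set of their own: 18 Mmp, 15 Adamts, 5 Adamtsl and 4 Timp genes, with 78 probe sets among them. Another 9 genes of these families (Mmp15, Mmp21, Mmp25, Mmp27, Mmp28, Adamts2, Adamts13, Adamts14 and Adamts17) were not analysed here.

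The regions were the rete testis (RT, n = 3 arrays), the Sertoli valve (SV, n = 4) and the convoluted seminiferous tubules (ST, n = 4). All came from 7-week-old W/Wv males, which carry mutated alleles of the receptor gene Kit and whose tubules are depleted of germ cells, so no array holds tissue of a wild-type testis. The SV is the terminal segment of the tubule, where modified Sertoli cells border the RT, and ST pieces were taken from the distal testis. Each array held RNA pooled from 20 testes, and the pieces were cut under a dissecting microscope after trypan blue had been injected through the efferent ducts. By the study's methods, SV pieces probably carried some cells of the RT. In bulk pieces such as these, fewer cells of a type and less RNA per cell cannot be told apart.

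Metalloproteinases are zinc enzymes made as inactive proenzymes, which are cut by furin-like convertases or by other proteases before they act on collagens, laminins, proteoglycans and cell surface proteins. The Timp proteins bind the active site and block it, with Timp3 also acting on several Adamts enzymes. In the testis such proteases and inhibitors are known from the remodelling of Sertoli cell junctions and of the basement membrane around the tubules.

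Promoter sequence was available for 27 of the 42 genes, in 30 RefSeq windows (build GRCm38.p6) from 250 bases before to 50 bases after the transcript start. The 100 bases directly before the start follow for 6 genes, chosen because Mmp7 had the widest difference of all members, Mmp23 differed between all regions, Timp1 was highest in the SV, and Mmp10, Mmp3 and Mmp13 lie in one row with Mmp7 on chromosome 9 and were dim. Capitals mark TGANTCA, which includes the AP-1 letters TGAGTCA and TGACTCA, and TATAAA, the letters of a TATA box, at any distance from the start. AGGAAG, a core bound by ETS factors, is marked too, and each was searched on both strands. In these stretches no match overlaps another.
Mmp7, chr9:7691990-7692089, plus strand: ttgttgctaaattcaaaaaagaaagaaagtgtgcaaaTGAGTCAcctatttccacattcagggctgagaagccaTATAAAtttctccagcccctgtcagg
Mmp10, chr9:7502242-7502341, plus strand: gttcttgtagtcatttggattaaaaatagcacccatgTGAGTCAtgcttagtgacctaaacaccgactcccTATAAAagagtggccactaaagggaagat
Mmp3, chr9:7445722-7445821, plus strand: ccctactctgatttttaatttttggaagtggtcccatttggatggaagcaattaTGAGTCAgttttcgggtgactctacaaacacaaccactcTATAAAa
Mmp13, chr9:7272414-7272513, plus strand: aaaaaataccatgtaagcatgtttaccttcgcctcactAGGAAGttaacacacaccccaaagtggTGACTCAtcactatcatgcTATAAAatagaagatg
Timp1, chrX:20870066-20870165, plus strand: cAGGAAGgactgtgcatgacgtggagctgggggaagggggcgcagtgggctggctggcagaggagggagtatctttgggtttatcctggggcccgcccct
Mmp23, chr4:155653385-155653484, minus strand: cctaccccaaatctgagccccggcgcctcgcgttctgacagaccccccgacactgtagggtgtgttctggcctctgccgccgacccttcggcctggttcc
The first 4 stretches each hold TGANTCA and TATAAA, the Timp1 stretch holds AGGAAG, and the Mmp23 stretch holds none of these letters. Mmp7 and Mmp23 each have a further start downstream that is not printed. The further Mmp7 window (chr9:7692091-7692390) holds AGGAAG and neither TGANTCA nor TATAAA. Over the full windows, TGANTCA occurred in 26.7% of the 30 member promoters and in 7.81% of all 32851 RefSeq windows. Its 8 genes were Mmp7, Mmp10, Mmp3, Mmp13, Mmp12, Mmp1a, Mmp1b and Mmp20, all of them in the chromosome 9 cluster. TATAAA occurred in 36.7% of member promoters and 13.6% of all windows, and AGGAAG in 43.3% and 35.4%. A match describes letters in a window and not a bound site.

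Signals are Affymetrix MAS5.0 values on a linear scale, each array scaled so that its mean without the lowest and highest 2% of values is 500, with array medians of 65.8 to 110.4. Differences are log2 ratios ± SE from limma over all 11 arrays, and a gene was called at an adjusted p under 0.05 (Benjamini-Hochberg over 45101 probe sets) with over 2-fold. Markers followed the labels in RT against ST, with 11 of 13 rete testis epithelium markers higher and 14 of 21 Sertoli cell markers lower. In SV against ST, 9 of the 13 rete testis markers were higher as well, and 0 Sertoli cell markers were called. The rete testis markers summed to 33654 to 47445 in RT, 5603 to 12562 in SV and 1309 to 1770 in ST. Markers of efferent duct and epididymis epithelium were higher too, 6 of 9 in RT and 3 of 9 in SV against ST. Arrays numbered 1 and 2 stood apart from those numbered 3 and 4 in every region, with 18S rRNA 3′ signals of 20675 to 32135 against 6063.5 to 12751. Fitted alone, replicates 1 and 2 called 9 members higher in RT than in ST beside 12.9% of all genes, and replicates 3 and 4 called 3 (Mmp7, Mmp23 and Adamts15) beside 3.62%, with the spread of the lone RT array taken from the other regions. In replicates 1 and 2, 3 members were higher in SV than in ST beside 3.82% of all genes, and in RT against SV the calls were Mmp7, Mmp23 and Timp1. Replicates 3 and 4 alone called 0 of the 18194 genes in both of these comparisons, so a missed call there says nothing about a member, and only their differences are given for them.

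Mmp7, Mmp23 and 6 other Mmp, Adamts or Adamtsl genes were higher in RT than in ST, and the inhibitor gene Timp1 was highest in the SV. In RT against ST, 8 of 42 members were called higher and 0 lower (19.0% of members), where 12.5% of all genes were called higher and 7.34% lower. In either direction 19.8% of all genes were called, so the share of members was near that background. The 8 were Mmp7, Mmp16, Mmp23, Adamts1, Adamts4, Adamts15, Adamtsl1 and Adamtsl4. In SV against ST, Mmp23 and Timp1 were called higher, 2 of 42 members beside 2.39% of all genes, and 0 were lower beside 0.0769% of all genes (2.47% in either direction). In RT against SV, Mmp7 and Mmp23 were called higher, beside 6.41% of all genes, and Timp1 lower, beside 4.39% (10.8% in either direction). At an unadjusted p under 0.05 with limma, without a fold threshold, 12 members were higher and 2 lower (Mmp11 and Mmp14) in RT against ST, beside 24.8% and 19.4% of all genes. The same count was 12 higher and 0 lower in SV against ST, beside 12% and 6.41% of all genes, and 8 higher and 4 lower in RT against SV, beside 18.2% and 15.8%. The median log2 difference of members was 0.32 in RT against ST and 0.27 in SV against ST, where that of all genes was 0.08 and 0.02. An F-test over the 3 regions passed for 12 members (28.6%) beside 30.4% of all genes. The 33 members called in no comparison include the gelatinase gene Mmp9, all 4 collagenase genes, Timp2, Timp3 and Timp4.

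**Figure D1:**
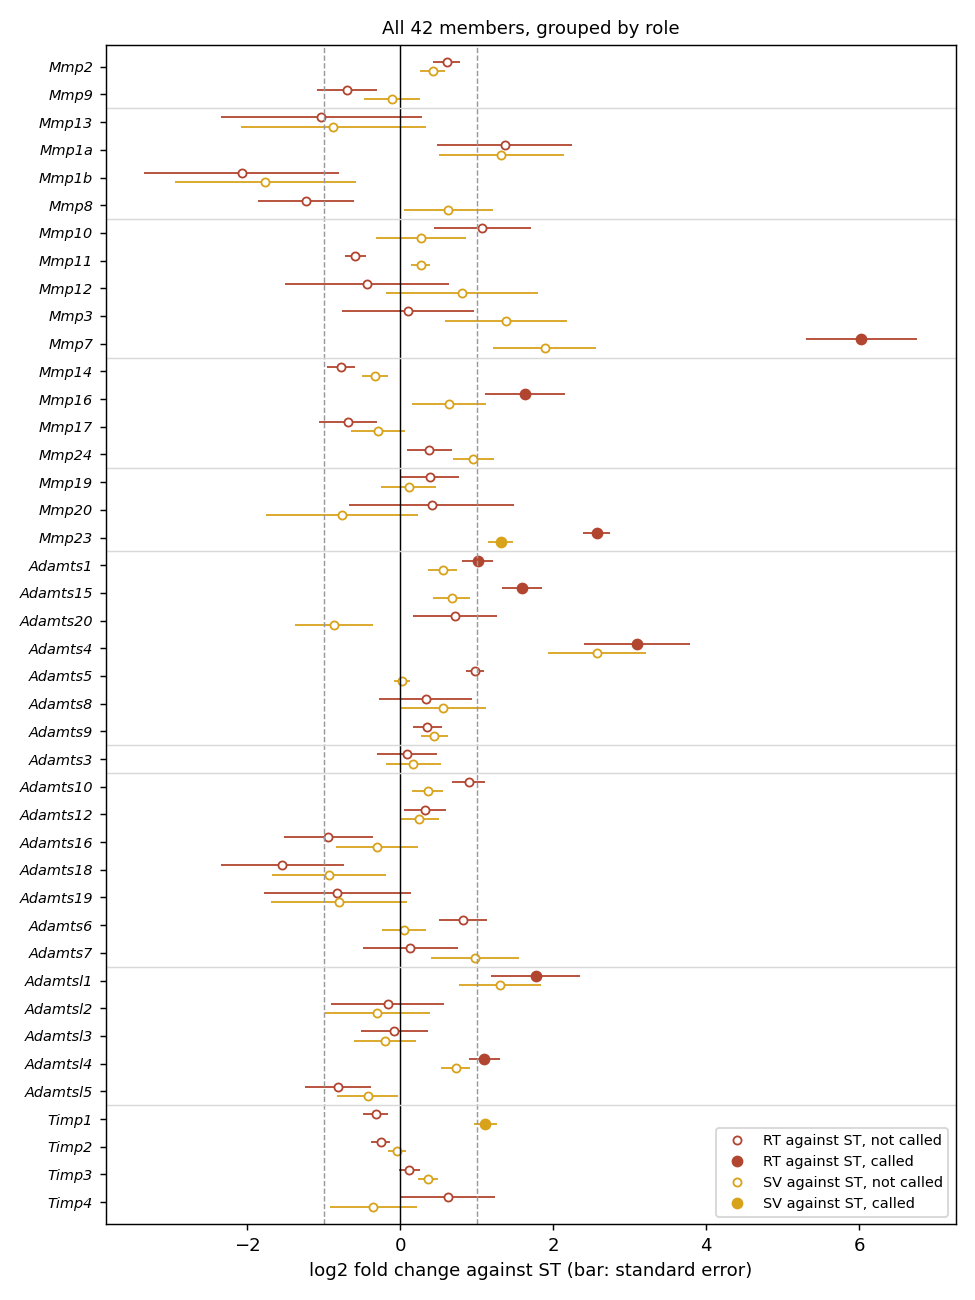
Log2 difference ± SE of the 42 members in RT against ST and in SV against ST, grouped by role, with filled points for called members and dashed lines at 2-fold in either direction. Mmp7 at 6.03 and Adamts4 at 3.09 lie farthest to the right for RT, and 8 points are filled for RT and 2 for SV.

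Mmp23 encodes a membrane-anchored metalloproteinase that lacks the haemopexin domain of most family members, carries an immunoglobulin-like domain in its place, and is released by a furin-like cut. Its signals were 2178, 2375 and 2279 in RT, 991, 829, 1051 and 956 in SV, and 424, 305, 517 and 326 in ST. The 3 regions formed separate steps with no overlap between any pair. Mmp23 was 5.92-fold higher in RT than in ST (log2 difference 2.57 ± 0.17, adjusted p = 8.20e-07 by limma) and 2.48-fold higher in SV than in ST (1.31 ± 0.16, adjusted p = 6.63e-04). It was also higher in RT than in SV (1.26 ± 0.17, adjusted p = 5.50e-04), and it was the one member called in all 3 comparisons. A second Mmp23 probe set gave 2.83, 1.64 and 1.19 in the same comparisons and was called in each. With each array centred on its median, RT against SV was 0.94 and no longer past 2-fold. Replicates 3 and 4 alone gave 2.47 in RT against ST, which was called, with differences of 1.29 in SV against ST and 1.18 in RT against SV. In SV against ST, 9 of 13 rete testis markers were higher as well. Their summed signal over SV replicates 1 to 4 was 12562, 6898, 5603 and 9954. The first Mmp23 probe set was highest in SV replicate 3, where that sum was lowest. The second had 959, 745, 635 and 798 in SV replicates 1 to 4, the same rank order as the sum. The part of rete testis cells in the SV difference of Mmp23 was not tested.

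Mmp7 encodes matrilysin, a small metalloproteinase of glandular epithelia that in the mouse intestine activates the defensins of Paneth cells. Its signals were 6648, 5903 and 923 in RT, 527, 141, 88.0 and 191 in SV, and 88.4, 22.1, 84.0 and 40.4 in ST. Every RT array lay above every SV and ST array, RT replicate 3 was far below the other RT arrays, and SV replicate 3 lay within the range of ST. Mmp7 was 65.2-fold higher in RT than in ST (6.03 ± 0.73, adjusted p = 4.91e-05 by limma) and 17.6-fold higher in RT than in SV (4.14 ± 0.73, adjusted p = 0.00218). In SV against ST the difference was 1.89 ± 0.67 (adjusted p = 0.208). Without RT replicate 3 the RT against ST difference was 6.95, and in replicates 3 and 4 alone it was 3.99. In RT against SV replicates 3 and 4 alone gave 2.83. Over all arrays, the adjusted test of the study's methods did not call Mmp7 in RT against SV.

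Summed markers of efferent duct and epididymis epithelium and of the rete testis itself were set beside Mmp7. The summed signal of 9 efferent duct and epididymis markers was 14956, 13808 and 6182 in RT, 1962 to 4993 in SV and 1752 to 2543 in ST. The sum of 13 rete testis epithelium markers was 47445, 40223 and 33654 in RT, 5603 to 12562 in SV and 1309 to 1770 in ST. Both sums were lowest among the RT arrays in replicate 3 and highest among the SV arrays in replicate 1, as was the case for Mmp7. Most of the duct sum in SV and ST came from Esr1, with 4001, 3445, 1548 and 1921 in SV and 1493 to 2323 in ST. Esr1 was not called in SV against ST (adjusted p = 0.459 by limma). Single markers differed in RT. Aqp1 was 4144, 3109 and 878 and Krt19 904, 908 and 230, while Cftr was 1441, 1255 and 1432 and Dsp 10195, 7284 and 9913. The part of these epithelia in the Mmp7 result was not tested.

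**Figure D2:**
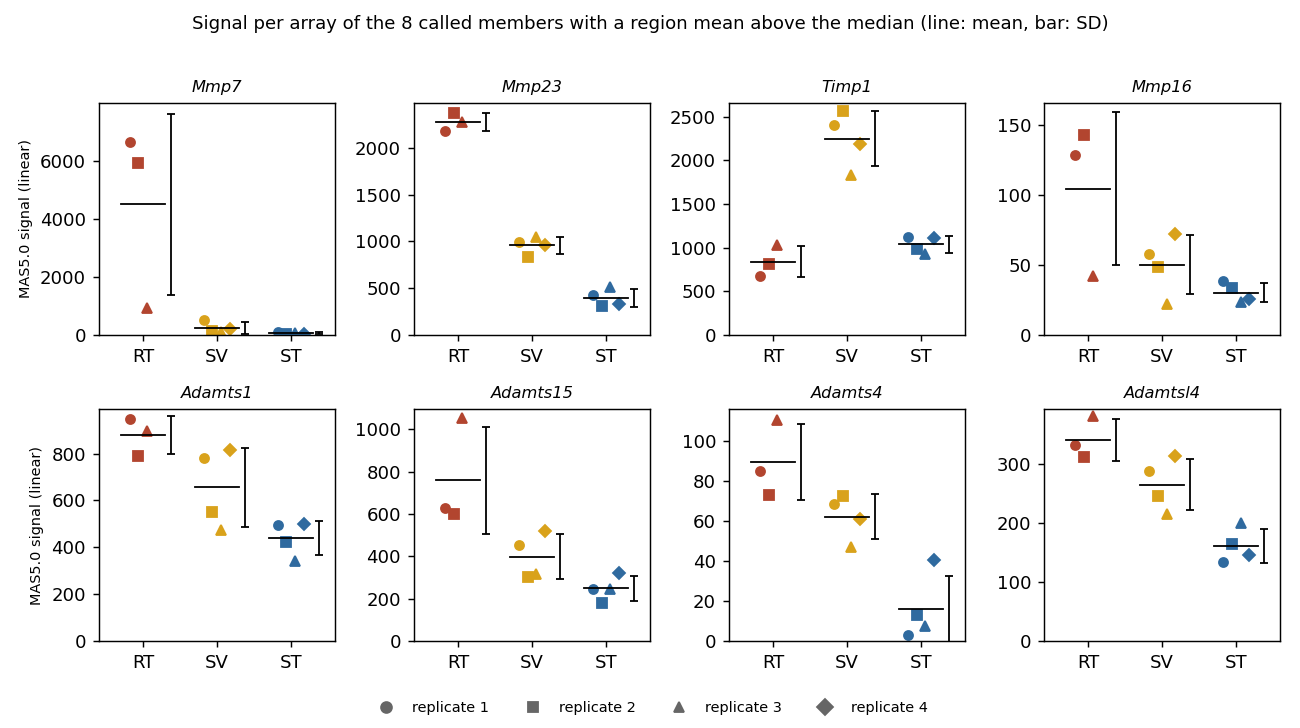
MAS5.0 signal in each array (points) with the mean (line) and SD (bar) of RT, SV and ST for 8 members called in at least 1 comparison, on linear axes from 0. The regions do not overlap for Mmp23, Timp1 peaks in SV at 2247, and Mmp7 has 1 RT array at 923 far below the other RT arrays.

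Mmp7 is the last gene of a row of 9 measured Mmp genes on mouse chromosome 9, in the order Mmp13, Mmp12, Mmp1b, Mmp3, Mmp1a, Mmp10, Mmp8, Mmp20 and Mmp7. The row holds collagenases (Mmp13, Mmp8, Mmp1a and Mmp1b), the stromelysins Mmp3 and Mmp10, the macrophage elastase Mmp12 and the enamel protease Mmp20. Signals of the other 8 genes ran from 0.888 to 75.3 over all arrays, below the array-wide median of 87.1, and none was called. The smallest adjusted p among them was 0.0673, for Mmp8 in RT against SV (-1.86 ± 0.63), with signals of 4.0, 17.7 and 12.5 in RT and 28.1 to 49.5 in SV. Mmp8, a neutrophil collagenase, was past the threshold there with quantile normalization, with median centring and by the unadjusted test of the study's methods. Detection calls were not used here, so whether the dim genes were expressed cannot be told from these signals. The promoter stretches of Mmp10, Mmp3 and Mmp13 above carry the same TGANTCA and TATAAA letters as the printed stretch of Mmp7, whose window at a further start lacks them.

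**Figure D3:**
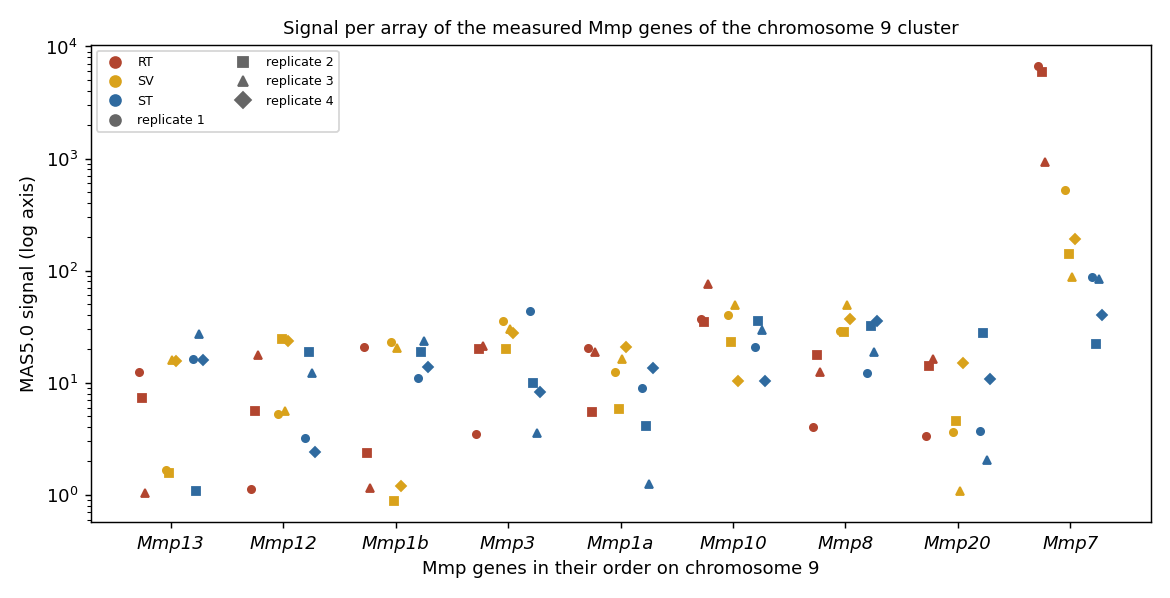
MAS5.0 signal on a log axis of the 9 measured Mmp genes of the chromosome 9 row, in chromosome order, with a point for each array of RT, SV and ST. Signals of 8 genes lie at or under 75.3, while Mmp7 reaches 923 or more in every RT array.

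Membrane-type metalloproteinases sit at the cell surface and cut pericellular collagen and other proenzymes. Mmp16 signals were 129, 142 and 42.2 in RT, 57.8, 48.2, 22.1 and 72.4 in SV, and 38.4, 33.5, 23.2 and 25.8 in ST. All RT arrays lay above ST, and RT replicate 3 lay within the SV range in this probe set. Another probe set had 93.4, 103 and 98.5 in RT, above its highest SV signal of 61.8. A further one had 105, 112 and 50.8 in RT, above its highest SV signal of 42.6. In the dimmest probe set RT and SV overlapped. From the first probe set, Mmp16 was 3.10-fold higher in RT than in ST (1.63 ± 0.52, adjusted p = 0.0359 by limma). Of its 4 probe sets, 3 were called, and the settings below are for the first. The call was lost without RT replicate 1 (1.39, adjusted p = 0.152), RT replicate 2 (1.31, adjusted p = 0.166) or ST replicate 2, 3 or 4 (adjusted p = 0.0537 to 0.0773), and with quantile normalization (1.28) or median centring (1.21). In replicates 3 and 4 alone Mmp16 was 0.78 (adjusted p = 0.687), and the adjusted test of the study's methods did not call it.

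Mmp14, the activator of pro-Mmp2 at the cell surface, had signals of 2161, 2904 and 2085 in RT, 2797, 4002, 3264 and 2886 in SV, and 4152, 5323, 3267 and 3703 in ST. Every RT array was below every ST array, and the SV arrays overlapped both. The difference of -0.78 ± 0.19 in RT against ST passed the adjusted p (0.00699 by limma) and not the 2-fold threshold, and all 3 Mmp14 probe sets lay between -0.93 and -0.78. With median centring it was called, at -1.20. Mmp24, a membrane-type enzyme of the nervous system, averaged 132 ± 39.4 in RT, 196 ± 55.5 in SV and 99.1 ± 16.0 in ST (SD), and its SV against ST difference of 0.95 was not past the test (adjusted p = 0.0964). Mmp17 averaged 37.7, 49.9 and 61.7 in RT, SV and ST, below the array-wide median in each region, and was not called.

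The gelatinase gene Mmp2 and the stromelysin-3 gene Mmp11 differed by less than 2-fold. Mmp2 signals were 463 to 750 in RT, 437 to 573 in SV and 348 to 424 in ST, so that RT and SV both lay above ST. For RT against ST the difference was 0.61 ± 0.18 (adjusted p = 0.0209 by limma), and for SV against ST 0.42 (adjusted p = 0.257). Mmp11 ran the other way, with 310, 284 and 326 in RT, 490 to 599 in SV and 434 to 486 in ST. Its RT arrays lay below all others, with -0.59 ± 0.14 against ST (adjusted p = 0.00568) and -0.85 ± 0.14 against SV (adjusted p = 0.00122). Mmp11 was called lower in RT against SV with quantile normalization (-1.04), and in both RT comparisons with median centring (-1.17 against SV and -1.01 against ST). The other gelatinase gene, Mmp9, averaged 35.9 in RT, 54.3 in SV and 57.3 in ST, and Mmp19 averaged 157, 144 and 125 in RT, SV and ST, and neither passed the test.

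Adamts enzymes of the hyalectanase group, which cut aggrecan, versican and other proteoglycans that bind hyaluronan, held 3 of the 8 RT calls. Of these 7 measured genes, 3 were called higher in RT against ST (Adamts1, Adamts4 and Adamts15), beside 12.5% of all genes. The median difference of the group was 0.97, where that of all genes was 0.08, and the group was not tested as a set. Adamts15 signals were 628, 600 and 1051 in RT, 455, 304, 317 and 522 in SV, and 249, 180, 245 and 323 in ST. RT lay above both other regions in every array, while SV and ST overlapped. Adamts15 was higher in RT than in ST by 1.59 ± 0.26 (adjusted p = 5.57e-04 by limma), and this call held under all 14 other settings and in all 11 fits that left out 1 array. Against SV the difference was 0.92 (adjusted p = 0.0337), under 2-fold, and it was called with the replicate number as a block (1.06, adjusted p = 0.00193) or without SV replicate 4 (1.06, adjusted p = 0.0245).

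Adamts4, the aggrecanase-1 gene, was dim, with signals of 85.1, 73.1 and 110 in RT, 68.4, 72.7, 47.1 and 60.9 in SV, and 2.95, 12.9, 7.5 and 40.4 in ST. RT lay above SV by a narrow gap, and both lay above every ST array. Adamts4 was 8.52-fold higher in RT than in ST (3.09 ± 0.69, adjusted p = 0.00473 by limma), a size that rests on low ST signals, since a floor of 32 on the signal gave 1.38. In SV against ST the difference was 2.57 ± 0.64 (adjusted p = 0.0583). That value was called with the replicate number as a block (adjusted p = 0.0234), without SV replicate 3 (adjusted p = 0.0454) or without ST replicate 4 (3.22, adjusted p = 0.00787). A second Adamts4 probe set was called in RT against ST as well. It was dimmer, with means of 51.7 in RT and 10.1 in ST, so its larger difference rests on low ST signals too. The RT against ST call of the first probe set was lost by the adjusted test of the study's methods and in replicates 3 and 4 alone.

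Adamts1, a protease gene induced at ovulation in the mouse ovary, had signals of 947, 791 and 898 in RT, 779, 551, 476 and 815 in SV, and 495, 423, 342 and 499 in ST. The RT arrays lay above all ST arrays, and SV overlapped both. Its difference in RT against ST was just past 2-fold (1.01 ± 0.20, adjusted p = 0.00240 by limma). The call was lost with quantile normalization (0.91), with median centring (0.59) and with 32 added to the signal (0.96). It was lost as well when RT replicate 1 (0.95) or 3 (0.99) was left out, or ST replicate 2 (just under 2-fold) or 3 (0.90). With replicates 1 and 2 against 3 and 4 as a term it fell just short of 2-fold too, and the sets alone gave 0.92 (replicates 1 and 2) and 1.12 (replicates 3 and 4) without a call.

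Adamts5, the aggrecanase-2 gene, was as near to the threshold from the other side. Signals were 3689, 3928 and 3457 in RT, 2027, 1866, 1617 and 2146 in SV, and 1874, 1897, 1837 and 1900 in ST. RT stood above both other regions without overlap, and SV spanned the whole ST range. The differences were 0.97 ± 0.12 against ST (adjusted p = 5.36e-05 by limma) and 0.95 against SV (adjusted p = 3.12e-04), with 0.02 in SV against ST (adjusted p = 0.971). With the replicate number as a block, RT against ST was 1.01 and was called, as it was without RT replicate 3 (1.02) and with quantile normalization (1.06). Of 4 Adamts5 probe sets, 3 gave 0.89 to 0.97 in RT against ST, and the dimmest gave 2.51.

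Of the other hyalectanase genes, Adamts9 averaged 1278 in RT, 1367 in SV and 1009 in ST, and Adamts8 and Adamts20 stayed below the array-wide median in every region. Adamts20 had signals of 82.6, 65.7 and 55.5 in RT, against 9.88, 23.0, 29.3 and 37.4 in SV. These did not overlap, and the difference of 1.59 ± 0.55 was not past the test (adjusted p = 0.0767) but was called with the replicate number as a block (1.78, adjusted p = 0.0245). Adamts10, which binds fibrillin microfibrils, had signals of 251, 249 and 344 in RT, 155, 197, 192 and 229 in SV, and 151, 123, 160 and 170 in ST. RT lay above both other regions, with a difference from ST of 0.89 ± 0.21 (adjusted p = 0.00705 by limma), below 2-fold. Adamts3, the procollagen N-proteinase measured here, averaged 65.3 in RT, 70.8 in SV and 60.8 in ST. Adamts6, Adamts7, Adamts12, Adamts16, Adamts18 and Adamts19 were not called. The probe sets of Adamts16 split, since the brighter one gave -0.94 in RT against ST and the other 1.66, which was called.

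Adamtsl proteins share the Adamts ancillary domains and lack the protease domain. Adamtsl4, which binds fibrillin-1, had signals of 332, 312 and 381 in RT, 288, 246, 216 and 313 in SV, and 134, 165, 200 and 146 in ST. RT and SV both lay above every ST array and overlapped each other at their edges. Adamtsl4 was 2.14-fold higher in RT than in ST (1.10 ± 0.20, adjusted p = 0.00116 by limma), and 0.72 higher in SV than in ST without passing the test (adjusted p = 0.0656). The RT call was lost with quantile normalization (0.80), median centring (0.67) and 32 added to the signal (0.96). Adamtsl1 signals were 56.2, 44.6 and 68.5 in RT, 37.2, 48.7, 34.2 and 41.3 in SV, and 15.0, 6.80, 14.6 and 47.1 in ST. All were below the array-wide median, and ST replicate 4 fell within the RT range. Its difference of 1.77 in RT against ST (adjusted p = 0.0387) was called in 3 of 11 fits that left out 1 array and under 5 of 14 other settings, and 1 of its 3 probe sets was called. A floor of 32 on the signal gave 0.66, and 32 added to the signal 0.79, both under 2-fold. Adamtsl2, Adamtsl3 and Adamtsl5 were not called.

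Of the 4 inhibitor genes, Timp1 was called, with its highest signals in the SV. Timp1, a secreted inhibitor of most Mmp enzymes, had signals of 673, 817 and 1032 in RT, 2401, 2564, 1837 and 2187 in SV, and 1124, 986, 929 and 1112 in ST. Every SV array lay above every RT and ST array, and RT replicate 3 lay within the ST range. Timp1 was 2.16-fold higher in SV than in ST (1.11 ± 0.15, adjusted p = 0.00136 by limma), and 2.69-fold lower in RT than in SV (-1.43 ± 0.16, adjusted p = 2.33e-04). In RT against ST the difference was -0.32 (adjusted p = 0.184). Both calls held in all 11 fits that left out 1 array. In replicates 3 and 4 alone the values were 0.98 in SV against ST and -0.96 in RT against SV.

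Timp2, which also takes part in the activation of pro-Mmp2 by Mmp14, had signals of 11803, 11519 and 13298 in RT, 14077, 13824, 15548 and 13209 in SV, and 16226, 14414, 14874 and 12922 in ST. The regions overlapped, and the differences were -0.26 in RT against ST (adjusted p = 0.168 by limma) and -0.04 in SV against ST (adjusted p = 0.937). Timp3, the inhibitor that binds the extracellular matrix, had signals of 2646, 2701 and 2558 in RT, 3032, 3818, 2591 and 3150 in SV, and 2616, 2631, 2353 and 2146 in ST. Here too the arrays overlapped, with 0.36 in SV against ST (adjusted p = 0.203). Timp4 signals were 43.4, 37.1 and 35.5 in RT, 14.2, 12, 52.1 and 16.4 in SV, and 44.9, 22.8, 31.8 and 12 in ST, all below the array-wide median and overlapping. Multiple probe sets of Timp2 (6), Timp3 (4) and Timp4 (2) were likewise never called.

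Of the listed inhibitor and substrate genes, A2m and Bcan were called in the same 2 comparisons and directions as Timp1. A2m, which encodes the broad protease trap alpha-2-macroglobulin, had signals of 142, 82.2 and 215 in RT, 310, 260, 295 and 394 in SV, and 79.3, 55.2, 92.7 and 97.3 in ST. Every SV array lay above every RT and ST array. A2m was 3.92-fold higher in SV than in ST (1.97 ± 0.30, adjusted p = 0.00281 by limma) and lower in RT than in SV (-1.20, adjusted p = 0.0244). Bcan, the gene of the lectican brevican and so of an Adamts substrate, had 238, 180 and 669 in RT, 959, 813, 1004 and 1063 in SV, and 121, 121, 225 and 224 in ST. It was again highest in each SV array, by 2.53 against ST (adjusted p = 0.00158) with -1.64 in RT against SV (adjusted p = 0.0111), from a probe set of a type that can pick up related transcripts. Acan, the aggrecan gene, was higher in SV than in ST by 1.48 (adjusted p = 0.0101), with 139, 112 and 174 in RT, 206, 213, 180 and 215 in SV, and 45.0, 100, 84.6 and 73.2 in ST.

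Versican (Vcan), another Adamts substrate, was instead highest in the RT, with 287, 415 and 476 in RT, 143, 95.4, 54.5 and 196 in SV, and 46.6, 26.3, 60.2 and 57.3 in ST. Its RT arrays lay above all others, with 3.08 in RT against ST (adjusted p = 1.40e-04 by limma) and 1.81 in RT against SV (adjusted p = 0.0126). Of the 4 lectican genes, 1 was thus called higher in RT and 2 in SV against ST, beside 12.5% and 2.39% of all genes.

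**Figure D4:**
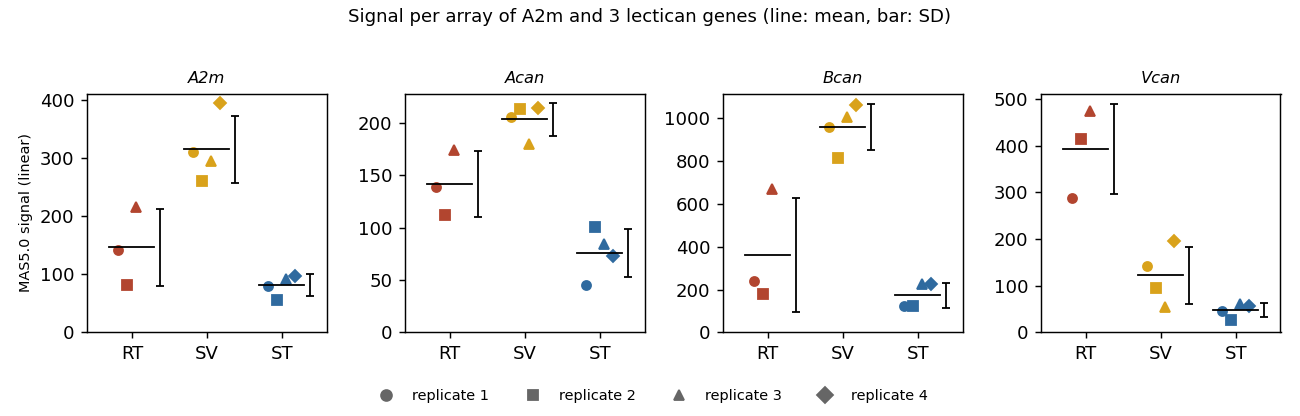
MAS5.0 signal in each array (points) with the mean (line) and SD (bar) of RT, SV and ST for A2m, Acan, Bcan and Vcan. A2m, Acan and Bcan are highest in SV and Vcan is highest in RT.

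Genes that act with the members were read from lists of activators, other proteases, receptors and substrates. In RT against ST, 12.5% of all genes were called higher and 7.34% lower. The list counts stand beside these shares, and no list was tested as a set. Of 10 activators of pro-metalloproteinases, 3 were higher in RT against ST and 0 lower. These were the transmembrane serine protease genes Hpn (3.74, adjusted p = 0.00503 by limma) and St14 (2.97, adjusted p = 8.05e-04), and Plat, the tissue plasminogen activator gene (1.42, adjusted p = 2.32e-05). RT replicate 3 was lowest of the RT arrays for all 3, with 65.6 for Hpn, 110 for St14 and 3607 for Plat. Of 16 Adam and astacin genes, 3 were higher and 1 lower in RT against ST. The higher ones were Adam22 (3.80), an adhesion protein without protease activity, Bmp1 (1.85), the procollagen C-proteinase, and Adam15 (1.63), and the lower one was the sheddase Adam9 (-1.0, adjusted p = 5.07e-05). Of 11 other inhibitors, receptors and enhancers, 3 were higher in RT. Cd44, the hyaluronan receptor that docks several Mmp proteins, was higher in RT (3.85) and in SV (1.64) against ST. Spock1 (3.61), an extracellular proteoglycan, and Lrp1 (1.05), the clearance receptor of several metalloproteinases, were higher in RT against ST.

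Among substrates, 2 of 9 interstitial collagen genes were higher in RT against ST, Col1a1 (1.66) and Col6a2 (1.42), and 0 lower. Beside this and the next counts, 12.5% of all genes were higher and 7.34% lower in RT against ST. In SV against ST, 2.39% of all genes were higher. Of 16 basement membrane genes, 4 were higher, with Lama5 (2.61), Col4a5 (1.39) and Nid2 (1.36) among them, and 1 was lower, Lama1 (-1.82), a laminin chain of the tubule wall. Lama1 signals were 367, 427 and 725 in RT, 1005 to 2057 in SV and 1365 to 1965 in ST, so that all RT arrays lay below the other regions. Of 9 microfibril genes, 3 were higher in RT: Ltbp3 (2.20), a binding protein of latent TGF-beta, Efemp1 (1.07) and the elastin gene Eln (1.01). Ltbp3 was higher in SV against ST too (1.33, adjusted p = 1.73e-04). Fibroblast markers were higher in RT against ST in 2 of 10 genes, and their summed signal was 51309 to 63050 in RT, 33926 to 47062 in SV and 29577 to 44210 in ST. Macrophage and leukocyte markers, 10 genes with 0 called in any comparison, summed to 24389 to 30692 in RT, 21264 to 31208 in SV and 20951 to 24340 in ST. Peritubular myoid markers were lower in RT in 4 of 8 genes, with sums of 7682 to 11498 in RT against 18056 to 30809 in ST. Endothelial markers were higher in 3 of 7 genes in RT and in 1 of 7 in SV against ST, and summed to 4233 to 5430 in RT, 1426 to 3375 in SV and 806 to 1287 in ST. The part of any of these cells in the member results was not tested.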

How the data were processed

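RNA was extracted by the authors with the RNeasy Micro Kit, labelled with a GeneChip 3′ IVT Plus kit and hybridized to Affymetrix mouse genome arrays. The deposited intensity values are MAS5.0 signals on a linear scale, scaled per array by the authors. They come without read depth or detection calls, so the number of arrays limits the precision. A single gene symbol was given for 34958 of the 45101 probe sets, several for 932 and none for 9211, and all 42 members matched RefSeq by Entrez ID.

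The 11 arrays entered one limma fit of log2 signals (version 3.58.1 in R 4.3.3), moderated by eBayes with its trend option, and p-values of all probe sets were adjusted together by Benjamini-Hochberg. The code was tested on simulated data. Each group is 3 or 4 pools, so p-values measure the spread between pools. Figures used Python 3.11.15 and matplotlib 3.10.9.

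The members, role groups, marker lists and pathway lists were chosen with earlier results of these data known. Values per array are given for every Timp gene and for called members above the array-wide median signal of 87.1, and of each pathway list up to 4 called genes with the largest change in RT against ST are named. Per-array values of other genes were added after their values were seen.

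Labels give the same replicate numbers in each region. After removal of region means, same-numbered arrays correlated at 0.28 to 0.67 over probe sets above the median signal (0.07 to 0.19 over all probe sets), other numbers of the same set (1 and 2, or 3 and 4) at 0.17 to 0.48 (0.07 to 0.18 over all probe sets), and arrays of the other set at -0.58 to -0.28. Not every same-numbered pair passed 0.1 over all probe sets. The numbers were taken as pairs from the brighter probe sets, set and number were not told apart, and calls gained with the block rest on this choice.

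Alternatives were the Student test of the study's methods, with and without adjustment, a fit of the 2 regions compared, quantile normalization, median centring, 32 added to the signal or as a floor, omission of dim probe sets, a replicate block, eBayes with no trend, the replicate sets as a term or alone, no fold threshold, the second probe set and omission of each array.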

Additional observations from a re-analysis of the deposited data

How the results depend on the processing

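Scaling changed the balance of calls in both RT comparisons. The median difference of all genes in RT against ST was 0.08 as deposited, -0.08 with quantile normalization and -0.35 with median centring, and higher genes made up 63.0%, 51.8% and 34.8% of its calls. In RT against SV the medians were 0.04, -0.07 and -0.27, and the shares 59.3%, 48.1% and 32.1%.

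Members higher in RT than in ST numbered 8, beside 12.5% of all genes. They numbered 5 by the adjusted t-test of the study's methods and 5 with quantile normalization, each beside 10.2% of all genes. The number was 4 with median centring (beside 7.98%) and 5 with 32 added to the signal (beside 10.9%). Without dim probe sets it was 5, beside 14.4% of the 11592 genes left. When 1 array was left out it was 5 to 8. It was 5 without RT replicate 1 (beside 10.4%), ST replicate 2 (12.2%) or ST replicate 3 (11.9%). Mmp7, Mmp23 and Adamts15 were called in each of these settings. No member was lower, beside 7.34% of all genes (2 at an unadjusted p, limma, beside 19.4%). Mmp11 and Mmp14, 2 genes, were lower with median centring, beside 15% of all genes, or with no fold threshold, beside 15.2%. The number lower stayed at 0 when any 1 array was left out.

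In SV against ST, 2 members were higher, beside 2.39% of all genes. They numbered 4 by the methods' t-test without adjustment (Mmp7 and Adamts4 added), beside 4.03% of all genes. With its adjustment, which called 0.275% of all genes higher, they numbered 0. When 1 array was left out they numbered 2 to 3. In RT against SV, 2 members were higher, beside 6.41% of all genes. They numbered 1 by the adjusted t-test (Mmp7 lost), beside 2.54%, and 1 with median centring (Mmp23 lost), beside 4.02%. With the replicate block they numbered 4, beside 7.68%, and with no fold threshold 4, beside 10.9%. When 1 array was left out they numbered 2 to 4 (4 without SV replicate 4, beside 6.29%). Lower there was 1 member, Timp1, beside 4.39% of all genes. With it were called 2 in all by the methods' t-test without adjustment (beside 4.81%) and 2 with no fold threshold (beside 9.78%). There were 3 with quantile normalization (beside 5.74%) and 3 with median centring (beside 8.5%). The number lower stayed at 1 when any 1 array was left out.

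The replicate block added calls for Adamts5 in RT against ST, Adamts4 in SV against ST, and Adamts15 and Adamts20 in RT against SV, and changed no other call of a member. With the replicate sets as a term in place of the numbers, Adamts4 and Adamts20 were called in these comparisons and Adamts5 and Adamts15 were not. For 47 member differences followed singly, 1191 values under alternatives include 1094 that kept direction and side of the threshold, 51 that lost the call, 35 that gained one and 11 that changed sign. Those 11 were Adamts16 in RT against ST (1.66 from the second probe set), Adamts5 in SV against ST (-0.0871 with median centring, -0.0043 in replicates 3 and 4 alone, and -0.0374 to 0.0988 when 1 array was left out), Timp1 in RT against ST (0.022 in replicates 3 and 4 alone), Timp3 in RT against ST (-0.305 with median centring), Timp2 in SV against ST (0.0478 in replicates 3 and 4 alone, and -0.0999 to 0.0096 when 1 array was left out, positive without ST replicate 1), and Timp4 in SV against ST (0.0537 with a floor of 32 and 0.58 in replicates 3 and 4 alone). Over all 126 differences of the 42 members, 63 changed sign under at least 1 alternative, and none of these was a called difference. For these changes the cause was not tested beyond what each setting removes. Low signal limits 20 members that stayed below the array-wide median in every region, with Adamtsl1 called among them.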
